A study of Mus musculus with 18 samples.

Results

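The cerebellum of Aldh5a1-/- mice was compared with that of wild-type mice, across all genes on an Affymetrix mouse expression array. The 6 arrays were chosen by their sample titles, which name the genotype and the region, out of 18 arrays in the study. The knockout group (KO) was the Aldh5a1-/- cerebellum of animals 3363, 3389 and 3403, and the wild-type group (WT) was the cerebellum of animals 3396, 3405 and 3406, with 1 array per animal. No treatment, age, sex or strain is given in the labels, and neither is the cell type in which the gene was deleted, so the groups are known by genotype and region alone. Values for each group follow the order of the animal numbers just given.

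Aldh5a1 encodes succinic semialdehyde dehydrogenase, which in mitochondria completes the breakdown of GABA and passes its carbon to the tricarboxylic acid cycle as succinate. Loss of the enzyme is known to raise GABA and gamma-hydroxybutyrate in brain, and inherited deficiency in people causes developmental delay, seizures and often ataxia, a sign of disturbed cerebellar function. The cerebellar cortex holds a very large number of granule cells, which release glutamate, and its output neurons, the Purkinje cells, release GABA.

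The array carried 0 probe sets assigned to Aldh5a1, so the deletion itself was not checked in these data. The region was. Gabra6, a GABA receptor subunit of granule cells, had a signal of 2437 ± 159 in KO cerebellum and 2774 ± 96.9 in WT cerebellum (SD, n = 3 each), against 3.05 in WT hippocampus and 5.76 in WT cortex. Granule cell genes (Cbln1, Zic1, Neurod1, En2), Purkinje cell genes (Pcp2, Calb1, Car8, Ppp1r17) and the Bergmann glia gene Gdf10 were likewise bright on all 6 arrays. Forebrain genes were at or near the floor: Tbr1, Nrgn, Camk2a and Neurod6 had signals of at most 13.3 on any of the 6 arrays. The leukocyte marker Ptprc was below the floor, with at most 5.85. Signals are the deposited probe set intensities, whose trimmed mean was nearly the same on every array. Signals under 9.46, the 20th percentile of all values, were raised to that floor before log2 was taken, and differences are given as KO minus WT on the log2 scale with limma's standard error. Median signal was 56.3 to 61.9 on the KO arrays and 53.5 to 56.9 on the WT arrays, and the ratio of 3′ to 5′ Gapdh probe sets, a sign of RNA integrity, was 0.795 to 0.844 in KO and 0.788 to 0.801 in WT. The same ratio for actin was 1.39, 1.34 and 1.36 in KO and 1.37, 1.29 and 1.18 in WT, lowest in WT 3406, and its part in the results was not tested. Since 3 arrays against 3 cannot give an exact permutation p below 0.1, the tests rest on limma's model across all probe sets.

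Very few genes passed the test between genotypes. Of 8382 probe sets tested with limma, 3 passed a Benjamini-Hochberg adjusted p of 0.05, or 0.0358%, and all 3 were lower in KO: Lst1, a gene of myeloid leukocytes, Syt5, a synaptotagmin of vesicle membranes, and Rbm42, which encodes an RNA-binding protein. The number that were higher in KO and passed was 0, with a smallest adjusted p of 0.0668. At an unadjusted p under 0.05 there were 530 higher probe sets (6.32%) and 483 lower ones (5.76%), or 1013 in all (12.1%). The signals of the 3 KO arrays lay wholly above those of the 3 WT arrays for 627 probe sets (7.48%) and wholly below for 649 (7.74%).

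Differences were small for most of the transcriptome. The median over the 8382 probe sets was 0.03, and the 5th and 95th percentiles were -0.44 and 0.52. A difference of more than 2-fold was seen for 77 probe sets, 50 higher and 27 lower in KO, and the groups did not overlap for 47 of the 77. The 3 calls rest on an estimate of spread pooled over all 18 arrays: fitted on the 6 cerebellum arrays alone, 0 probe sets passed (smallest adjusted p 0.259, with 808 at an unadjusted p under 0.05).

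**Figure D1:**
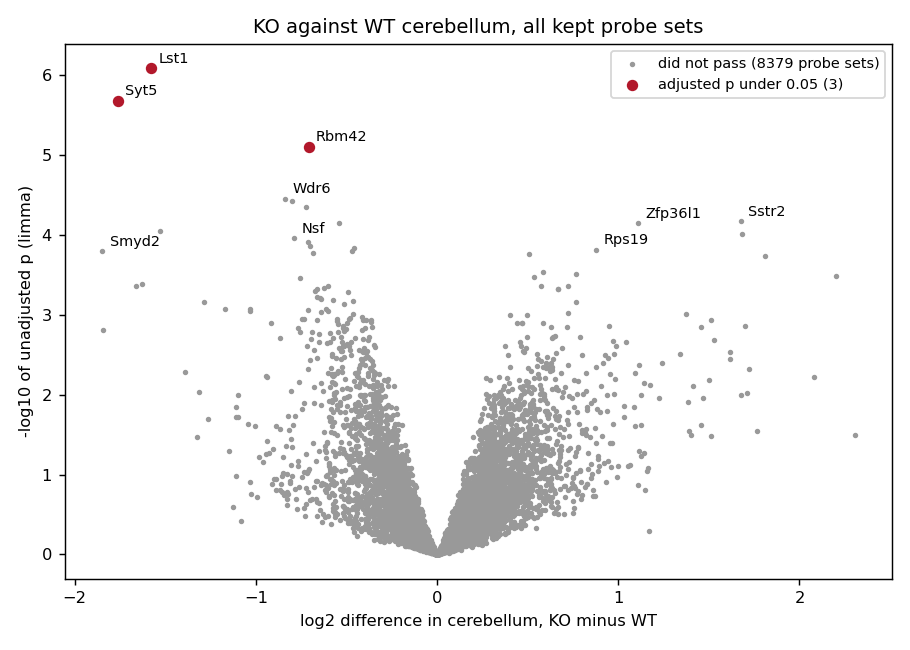
Each point is a probe set, placed by its log2 difference between KO and WT cerebellum (horizontal axis, KO minus WT) and by -log10 of its unadjusted limma p (vertical axis). Lst1, Syt5 and Rbm42, in red, passed an adjusted p of 0.05 and lie on the left, while the grey points did not pass.

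Lst1 encodes a transmembrane adaptor protein of myeloid cells and lies in the major histocompatibility complex. Its probe set had signals of 15.7, 15.6 and 17.9 in KO cerebellum, against 44.8, 43.2 and 60.7 in WT cerebellum. The KO signals were narrow and all under the lowest WT signal. The mean was 16.4 ± 1.28 in KO and 49.6 ± 9.65 in WT (SD, n = 3 each), a log2 difference of -1.58 ± 0.22 (95% interval -2.03 to -1.12), or 2.99-fold lower in KO, with a limma adjusted p of 0.00688. In bulk tissue, fewer cells of a type and less RNA per cell cannot be told apart. Of 24 listed genes of microglia and leukocytes, 15 were kept by the filter on dim probe sets, 7 were above 0 and 8 below, 0 passed, the median difference was -0.03, and their summed signal was 1525 to 1556 in KO and 1444 to 1778 in WT. The members of lowest p, Cd52 and Laptm5, were higher in KO (differences 0.52 ± 0.25 and 0.29 ± 0.14, limma adjusted p 0.428 and 0.440). Cd52 had 42.2, 43.8 and 36.7 in KO and 20.9, 30.8 and 35.7 in WT, without overlap. Coro1a was lower in KO without overlap (difference -0.21 ± 0.11). Csf1r, the receptor that microglia depend on, had 123, 119 and 143 in KO and 176, 141 and 152 in WT, and the groups overlapped. Ptprc, a marker of all leukocytes, was under the floor on all 6 arrays.

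Syt5 belongs to the synaptotagmins, vesicle membrane proteins that bind calcium and take part in exocytosis. Its signals were 16.01, 27.4 and 47.8 in KO cerebellum and 85.3, 82.2 and 116 in WT cerebellum. The KO animals differed widely among themselves, yet the highest of them stayed well under the lowest WT animal. The log2 difference was -1.76 ± 0.26 (95% interval -2.30 to -1.22), or 3.39-fold lower in KO, with a limma adjusted p of 0.00881. Of 14 synaptotagmins listed, 8 were kept, 3 above 0 and 5 below, with a median of -0.09, and Syt5 was the member that passed. Syt11, which lacks calcium binding, had 343, 351 and 304 in KO and 503, 389 and 551 in WT, without overlap (difference -0.52 ± 0.14, adjusted p 0.143). Syt1 and Syt2 are calcium sensors of fast transmitter release. Syt1 had 831, 856 and 695 in KO and 819, 849 and 835 in WT, and Syt2, the form typical of hindbrain synapses, had 1031, 828 and 1122 in KO and 682, 1172 and 907 in WT on its brighter probe set. The groups overlapped for both genes, with differences of -0.08 ± 0.11 and 0.13 ± 0.17.

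Rbm42 encodes a protein with an RNA recognition motif. Its signals were 350.3, 298 and 352 in KO cerebellum and 545, 500.5 and 589 in WT cerebellum. The KO signals were all under the lowest WT signal, and both groups were narrow, with log2 SDs of 0.14 in KO and 0.12 in WT. The log2 difference was -0.71 ± 0.12 (95% interval -0.95 to -0.47), or 1.63-fold lower in KO, with a limma adjusted p of 0.022. Among 39 listed genes of RNA-binding motif proteins and splicing factors, 30 were kept, 20 above 0 and 10 below, with a median of 0.10, and none but Rbm42 passed.

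**Figure D2:**
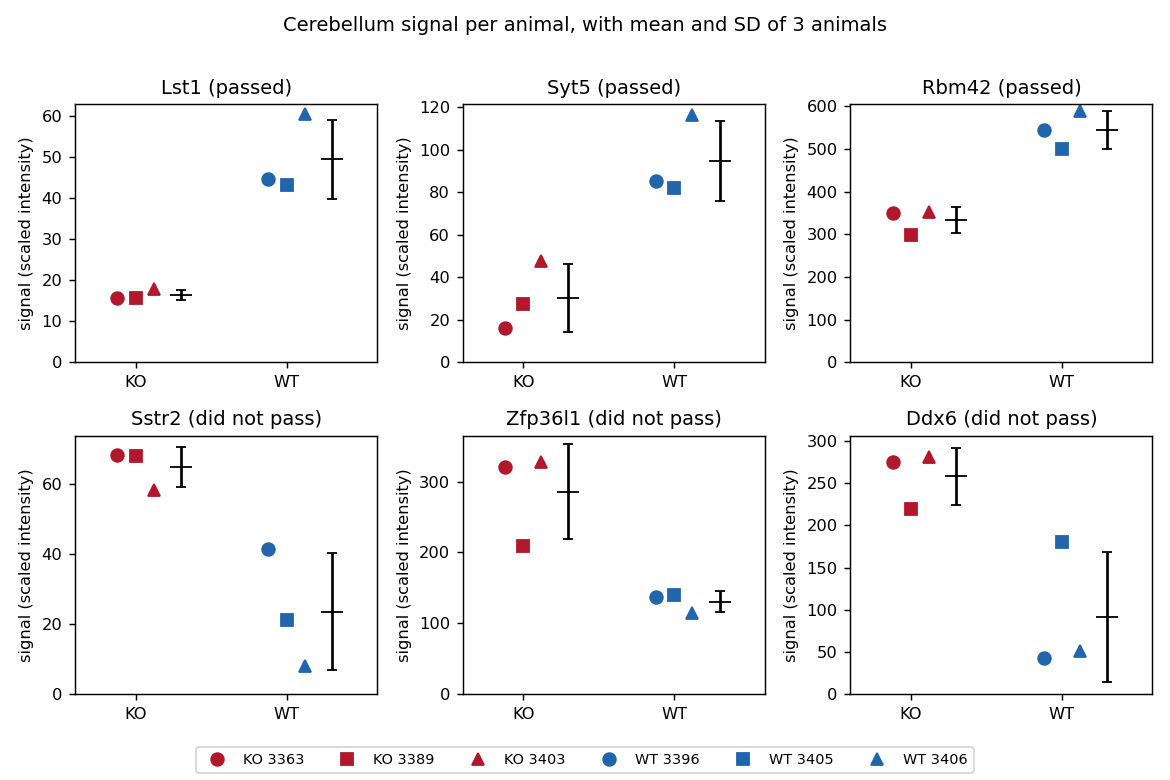
Signal (intensity, linear axis from 0) in each cerebellum array, KO left and WT right, for the 3 genes that passed and for Sstr2, Zfp36l1 and Ddx6, which did not. Symbols mark animals and the black bars are the mean and SD of 3 animals. For Ddx6 the WT animal 3405, at 180.0, sits near the KO animals while the other WT animals are at 42.6 and 51.0.

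The calls leaned on single animals to different degrees. Leaving out KO animal 3389 or WT animal 3406, with all of its arrays, left 0 calls (774 and 571 probe sets at an unadjusted p under 0.05). Leaving out WT animal 3405 gave 57 higher and 75 lower, and leaving out WT animal 3396 gave 6 and 6. Without KO animal 3363 there were 1 higher and 4 lower, and without KO animal 3403 there were 0 and 2. Rbm42 did not pass without KO 3363, 3389 or 3403, or without WT 3406. Syt5 did not pass without the filter on dim probe sets, and neither Syt5 nor Rbm42 passed without limma's intensity trend. Scaling each array to the same median gave 1 higher and 15 lower. Lst1 and Syt5 were dim, and the size of their differences depended on how low signals were treated. With 16 added to each signal in place of the floor, the differences were -1.01 for Lst1 and -1.30 for Syt5, and both passed.

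Of the 3 genes that passed, the RefSeq promoter table (GRCm38.p6) matched 1, and it matched 16 of the 24 genes named by lowest p. The 250 bases before the gene start are shown for Rbm42 because it passed, for Wdr6 because it had the next lowest p among the genes with lower signal in KO, and for Zfp36l1 as a gene with higher signal in KO. Capitals mark matches on either strand to the motif of the CCAAT box, the GC box (GGGCGG), the TATA box (TATAAA) or the cyclic AMP response element (its core TGACG). The stretches are chr7:30650229-30650478 for Rbm42, chr9:108578714-108578963 for Wdr6 and chr12:80113014-80113263 for Zfp36l1, all on the minus strand and read 5′ to 3′ along the gene.
Rbm42: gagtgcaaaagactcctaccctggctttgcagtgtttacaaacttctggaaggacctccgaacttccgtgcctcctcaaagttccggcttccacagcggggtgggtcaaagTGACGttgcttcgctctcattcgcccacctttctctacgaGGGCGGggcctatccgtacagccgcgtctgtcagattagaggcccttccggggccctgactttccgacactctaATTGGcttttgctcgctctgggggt
Wdr6: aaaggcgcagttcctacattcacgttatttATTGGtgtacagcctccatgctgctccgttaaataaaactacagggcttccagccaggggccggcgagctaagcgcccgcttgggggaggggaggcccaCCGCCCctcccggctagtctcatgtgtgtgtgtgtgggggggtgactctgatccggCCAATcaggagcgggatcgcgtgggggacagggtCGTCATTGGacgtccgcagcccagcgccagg
Zfp36l1: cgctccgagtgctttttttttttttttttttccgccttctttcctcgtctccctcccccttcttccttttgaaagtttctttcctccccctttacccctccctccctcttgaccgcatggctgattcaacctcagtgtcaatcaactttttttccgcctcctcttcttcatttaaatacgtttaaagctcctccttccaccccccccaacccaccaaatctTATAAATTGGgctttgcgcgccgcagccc
Rbm42 held 1 match each to the CCAAT box, the GC box and the cyclic AMP element, and none to the TATA box. Wdr6 held 3 matches to the CCAAT box, and 1 each to the GC box and the cyclic AMP element, of which the last overlaps a CCAAT match. Zfp36l1 held a TATA box match that overlaps a CCAAT match near the start, and none to the others. These letters are common in such windows. Of 32851 promoters of the same length, 33.8% held the CCAAT box, 32.7% the GC box, 12.4% the TATA box and 17.8% the cyclic AMP element. A match describes letters and is not a measured binding site.

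Next to the 3 calls, 9 genes with lower signal in KO had the smallest p without passing, at adjusted p of 0.0619 to 0.0720. Wdr6, a WD-repeat protein, had 213, 243 and 245 in KO and 417, 393 and 446 in WT (difference -0.84 ± 0.15). Ppp5c, a serine/threonine phosphatase that binds Hsp90, had 120.3, 100.1 and 122 in KO and 169, 187 and 247 in WT (difference -0.80 ± 0.15). Both were separated by a clear gap, and the WT animal with the highest signal was 3406 for both. Ndrg1, a stress-responsive gene abundant in myelinating cells, was measured by a pair of kept probe sets, and the groups did not overlap on either (differences -0.73 ± 0.14 and -0.47 ± 0.13). Its signals on the first were 247, 215 and 251 in KO and 419, 346 and 416 in WT.

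Vesicle traffic was represented by Nsf and Rab8b. Nsf, the ATPase that takes used SNARE complexes apart, had 556, 437 and 553 in KO and 1135, 739 and 829 in WT (difference -0.79 ± 0.16, adjusted p 0.072). The WT animals were spread, with 3396 highest, and all exceeded the KO animals. Rab8b, a small GTPase of membrane transport, was dim, with 18.4, 9.76 and 9.43 in KO and 31.5, 41.1 and 31.6 in WT, so that KO animal 3403 fell under the floor (difference -1.53 ± 0.31). The remaining genes were Twf2, an actin-monomer binding twinfilin, at -0.72, Cbx5, the heterochromatin protein HP1 alpha, at -0.70, Abhd8 at -0.46 and the lysine methyltransferase Smyd2 at -1.85. For Cbx5, Abhd8 and Smyd2 another kept probe set of the same gene gave -0.01, -0.05 and 0.22, so the probe sets of these genes did not give the same difference.

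The 12 genes of lowest p with higher signal in KO did not pass, at adjusted p of 0.0668 to 0.141. Zfp36l1, which binds AU-rich elements and promotes mRNA decay, had 321, 209 and 328 in KO and 137, 141 and 114 in WT (difference 1.11 ± 0.22, adjusted p 0.0668). The WT animals lay close together and KO animal 3389 was the lowest of its group. Rps19, a protein of the small ribosomal subunit, had 765, 681 and 546 in KO and 292, 383 and 408 in WT (difference 0.88 ± 0.18, adjusted p 0.072). Midn had 332, 280.3 and 295 in KO and 228, 197 and 212 in WT (difference 0.51 ± 0.11). Dnajb6, a co-chaperone of Hsp70, had 241, 229 and 243 in KO and 133, 184 and 163 in WT (difference 0.58 ± 0.13), while its other, brighter probe set gave 0.11. In each of these the groups did not overlap.

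Sstr2, a receptor for the peptide somatostatin, had the smallest p of the genes with higher signal in KO. It had 68.1, 68.1 and 58.3 in KO and 41.4, 21.1 and 8.04 in WT on that probe set (difference 1.68 ± 0.33). The KO animals were alike and the WT animals differed 4.37-fold after the floor, with WT 3406 under it. The other Sstr2 probe sets gave -0.29 and 0.13. Acot13, an acyl-CoA thioesterase whose gene lies beside Aldh5a1, had 272, 283 and 268 in KO and 168, 220.4 and 183 in WT (difference 0.53 ± 0.12, adjusted p 0.111). The KO animals lay within a narrow band above all WT animals. The others were Cep350, a centrosomal protein (0.77), the filament-forming GTPase Septin2 (0.72), Arfgap2, a GTPase-activating protein of the Golgi (0.67), carboxypeptidase D, Cpd (0.67), the scaffold of JNK signalling Mapk8ip1 (0.72) and Ddx6, described with the WT spread. Other probe sets gave 0.21 for Cpd and 0.15 for Mapk8ip1.

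Of the genes whose groups did not overlap, the 8 with the largest differences were mostly dim. Besides Smyd2, Ddx6, Syt5 and Sstr2 they were Dnajb5, Pnmt, Rbfox2 and Slc25a3. Dnajb5, a co-chaperone of Hsp70, had 9.55, 13.1 and 15.4 in KO and 46.8, 39.5 and 48.1 in WT (difference -1.84 ± 0.50, adjusted p 0.145). The WT animals lay close together, and the KO signals were little above the floor. Pnmt, the enzyme that makes adrenaline, had 76.6, 80.0 and 73.0 in KO and 10.6, 50.5 and 24.4 in WT (difference 1.70 ± 0.45, adjusted p 0.143), but its other probe set gave -0.03. Rbfox2, a splicing regulator, had 38.04, 43.2 and 26.5 in KO and 80.6, 193 and 82.4 in WT (difference -1.63 ± 0.38). Slc25a3, the mitochondrial phosphate carrier, had 65.2, 20.5 and 70.3 in KO and 16.6, 14.9 and 13.0 in WT (difference 1.62 ± 0.47), with KO animal 3389 far below the other KO animals. Over the array, 1118 genes had several kept probe sets, and for 601 of them (53.8%) all probe sets gave a difference of the same sign.

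The spread among the wild-type animals is given here beside the differences between genotypes. An SD describes single animals and a difference compares means of 3 animals, so their sizes cannot be compared directly. The median SD of log2 signal was 0.178 over the 3 KO arrays and 0.216 over the 3 WT arrays, and the WT SD was the larger for 4973 of 8382 probe sets (59.3%). The median size of the difference between KO and WT was 0.167, and the median of limma's standard error for it was 0.184. Signals ranged more than 2-fold among animals for 644 probe sets in KO (7.68%) and 806 in WT (9.62%). The size of the difference between genotypes exceeded the whole WT range for 1381 probe sets (16.5%).

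Spread was smaller at higher signal in both groups. In the dimmest quartile of probe sets the median SD was 0.324 in KO and 0.343 in WT, and in the brightest quartile it was 0.114 in KO and 0.157 in WT. The share of probe sets with a WT range over 2-fold was 27.0% in the dimmest quartile and 1.38% in the brightest. A typical 95% interval for the difference between genotypes was ± 0.65 in the dimmest quartile and ± 0.27 in the brightest, so a change under about 1.57-fold in the first or 1.20-fold in the second was within the error.

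**Figure D3:**
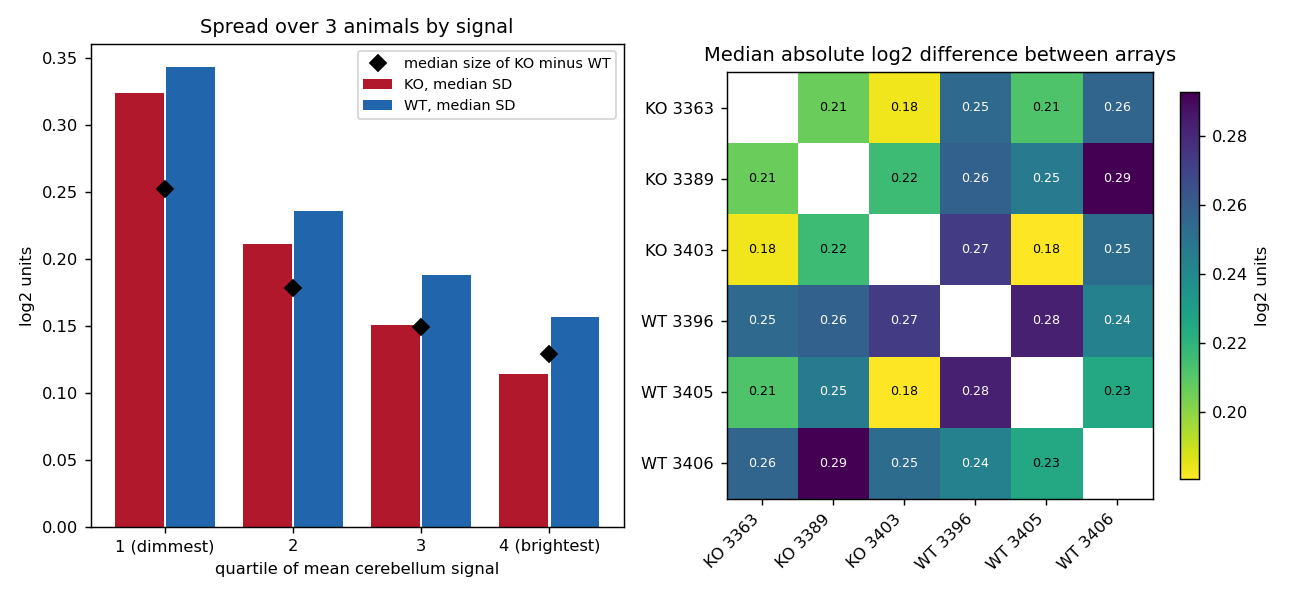
Left, the median SD of log2 signal over 3 animals in KO (red) and WT (blue) by quartile of mean cerebellum signal, with the median size of KO minus WT as black diamonds: the WT bar is the taller in each quartile, and both fall from the dimmest quartile (0.324 in KO and 0.343 in WT) to the brightest (0.114 and 0.157). Right, the median absolute log2 difference between each pair of arrays, where KO 3403 and WT 3405 form the closest pair at 0.181.

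By correlation, the WT animals did not form a group apart from the KO animals. The closest pair of the 6 arrays was KO 3403 with WT 3405, with a Pearson r across probe sets of 0.974 and a median absolute log2 difference of 0.181. The 3 pairs within KO had r of 0.963 to 0.974, and the 3 pairs within WT had 0.955 to 0.968. WT 3405 was nearer to KO 3363 (0.970) and to KO 3403 than to WT 3406 (0.968) or WT 3396 (0.955). All 15 pairs lay between 0.947 and 0.974, above the highest r with an array of another region, 0.888. These are correlations across probe sets and describe 6 arrays.

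Without WT 3405 the calls grew to 57 higher and 75 lower, 132 probe sets that included all 3 of the original calls. They included 19 of the 24 genes named by lowest p. The choice of this animal was made by leaving out each in turn, and no label sets it apart from the other WT animals. Its median signal was the lowest of the 6 arrays, at 53.5, and its Gapdh 3′ to 5′ ratio of 0.801 was within the range of the others. Whether these values bear on the result was not tested.

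Several genes that remove or silence mRNA showed this spread. Ddx6, an RNA helicase of processing bodies, had 275, 219 and 281 in KO and 42.6, 180.0 and 51.0 in WT (difference 1.81 ± 0.39, adjusted p 0.0725). WT 3405 approached the KO animals while WT 3396 and 3406 were several times lower. The other Ddx6 probe sets gave differences of 0.76 ± 0.19 and 0.83 ± 0.31 with WT 3405 again the highest WT animal, and on the dimmer of these it overlapped the KO animals. Ago2, the slicing Argonaute of RNA interference, had 329, 317 and 352 in KO and 58.1, 303 and 119.9 in WT (difference 1.37 ± 0.35, adjusted p 0.141). Xrn1, the cytoplasmic 5′ to 3′ exonuclease, had 65.7, 72.2 and 81.2 in KO and 13.4, 63.7 and 19.6 in WT (difference 1.51 ± 0.39, adjusted p 0.141). In all 3 genes the KO animals were alike, the groups did not overlap on the probe set with these values, and WT 3405 stood next to KO. The other regions of the same animals looked different. For Ago2 the hippocampus had 171, 241 and 159.8 in KO and 289, 243 and 280.4 in WT, with KO lower, and the cortex had 260.5, 255 and 244 in KO and 197, 242 and 215 in WT, with WT 3405 nearest to KO. For Xrn1 the hippocampus had 3.09, 9.40 and 2.41 in KO, all under the floor, and 19.5, 25.5 and 24.2 in WT, and the cortex had 95.6, 70.8 and 107.9 in KO and 66.2, 41.9 and 59.1 in WT. For Ddx6 the hippocampus had 68.2, 114 and 51.4 in KO and 116, 104 and 159 in WT, and the cortex had 143, 159 and 139 in KO and 105, 91.0 and 149 in WT. WT 3405 was thus the WT animal farthest from KO in cortex for Xrn1 and for Ddx6 on this probe set.

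Of 16 listed genes of mRNA decay and silencing, 10 were kept, 6 above 0 and 4 below, with a median of 0.07. In 4 of them the groups did not overlap with KO higher and in 1 with KO lower, beside 7.19% and 8.21% of all kept genes. Lsm1, part of the ring of proteins that promotes decapping, was another, with 136, 144 and 122 in KO and 118, 104 and 88.1 in WT (difference 0.38 ± 0.14). None of the 10 passed with all animals in the fit.

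Among probe sets with a mean WT signal above the median, the widest WT spread was that of a choroid plexus gene. Ttr, the thyroxine carrier that choroid plexus secretes into cerebrospinal fluid, had 971, 266 and 1237 in KO and 1112, 27.0 and 88.1 in WT, a 41.2-fold range among WT animals. WT 3396 and KO 3363 and 3403 were high, KO 3389 was between, and WT 3405 and 3406 were low, so the groups overlapped (difference 2.31 ± 0.99, adjusted p 0.354). Folr1, a folate receptor of the same epithelium, had 123, 56.5 and 125 in KO and 114, 20.8 and 10.5 in WT, and Kl, which encodes Klotho, had 105, 15.0 and 108 in KO and 48.4, 3.48 and 4.63 in WT, where WT 3405 and 3406 were under the floor. Of 13 listed choroid plexus genes, 6 were kept, 6 of 6 were above 0 with a median of 1.11, and 0 passed or were free of overlap. Their summed signal was 2630 to 3499 in KO and 1383 to 3793 in WT.

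The other genes of widest WT spread were of mixed function. Astn1, a neuronal protein of glial-guided migration, had 471, 677 and 652 in KO and 440.1, 587 and 77.2 in WT, where WT 3406 alone was low. Tradd, an adaptor of the tumour necrosis factor receptor, had 58.4, 149.5 and 166 in KO and 79.5, 409 and 249 in WT, where WT 3396 was low and WT 3405 high. Atp2a3, a calcium pump of the endoplasmic reticulum, had 298, 214 and 286 in KO and 95.9, 292 and 274 in WT, where WT 3396 was low. The odd animal was not the same from gene to gene. WT 3396 lay farthest from the other WT animals for 38.7% of probe sets, WT 3405 for 34.3% and WT 3406 for 27.0%. Tmem129, Cse1l and H3c14 ranged 3.77, 3.18 and 3.04-fold among WT animals, and all 6 genes overlapped between groups.

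At the other end of these brighter probe sets, 8 genes were nearly identical in the 3 WT animals. Atp5o, a subunit of ATP synthase, had 1618, 1634 and 1733 in KO and 1611, 1624 and 1618 in WT. Ppp3r1, the regulatory subunit of calcineurin, had 1230.2, 1186 and 1062 in KO and 1219.9, 1209 and 1219.9 in WT, and Hadh, an enzyme of fatty acid oxidation, had 163, 179 and 192 in KO and 175, 176 and 175 in WT. For Ppp3r1 and Hadh the KO animals fell on both sides of WT, and for Atp5o KO 3363 lay within the WT range. None of the 8 separated the groups, the others being Scgb1b2, Pip5k1a, Mpdu1, Tnk2 and Pqbp1 with differences of -0.02, 0.05, -0.04, 0.01 and -0.16.

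Gene groups were then described against all 6249 kept genes, of which 3411 were above 0 and 2833 below, with a median of 0.02, and 7.19% did not overlap with KO higher and 8.21% with KO lower. The lists were chosen with earlier results of these data known, and counts are given without a test. The largest shares free of overlap, in either direction, were 50% in the creatine and mRNA decay lists and 42.9% in the granule cell list. Vesicle fusion had 35.3%, heat shock 35% and myelin 30%, beside 15.4% of all kept genes. No listed gene passed other than Syt5 and Rbm42. The median kept its sign in all 13 alternative settings for 12 of the 36 lists: granule cell, interneuron, myelin, choroid plexus, hindbrain, GABA synthesis, glutamate receptor, vesicle fusion, ataxia, integrated stress response, mRNA decay and the neighbours of Aldh5a1. For the other lists it turned in at least 1 setting. A kept sign does not mean a kept size. Under median scaling the median was 7.2e-05 for mRNA decay, 0.02 for the granule cell list and 0.02 for the neighbours of Aldh5a1.

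Of 26 genes of the machinery of synaptic vesicle fusion, 17 were kept, 12 were below 0 and 5 above, with a median of -0.21. In 6 (35.3%) the groups did not overlap with KO lower, and in 0 with KO higher, beside 8.21% and 7.19% of all kept genes. Besides Nsf these included Cplx1, a complexin that clamps SNARE complexes, with 756, 819 and 681 in KO and 1090.1, 939 and 1601 in WT (difference -0.65 ± 0.18, adjusted p 0.158). Vamp2, the vesicle SNARE, had 1783, 1676 and 1819 in KO and 2281, 1972 and 2472 in WT (difference -0.34 ± 0.10, adjusted p 0.166). Syp, the vesicle protein synaptophysin, had 418, 289 and 359 in KO and 430.3, 469.9 and 685 in WT (difference -0.56 ± 0.17, adjusted p 0.18). WT 3406 was the highest animal in all 3, and the WT animal closest to KO was 3405 for Cplx1 and Vamp2 and 3396 for Syp. Snap25, the SNARE of the plasma membrane, gave -0.13 and overlapped. The median per animal, relative to the WT mean, was -0.28, -0.18 and -0.33 in KO and -0.14, -0.06 and 0.15 in WT, and it kept its sign in 13 of 13 alternative settings, with -0.34 to -0.21 when each animal was left out in turn.

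**Figure D4:**
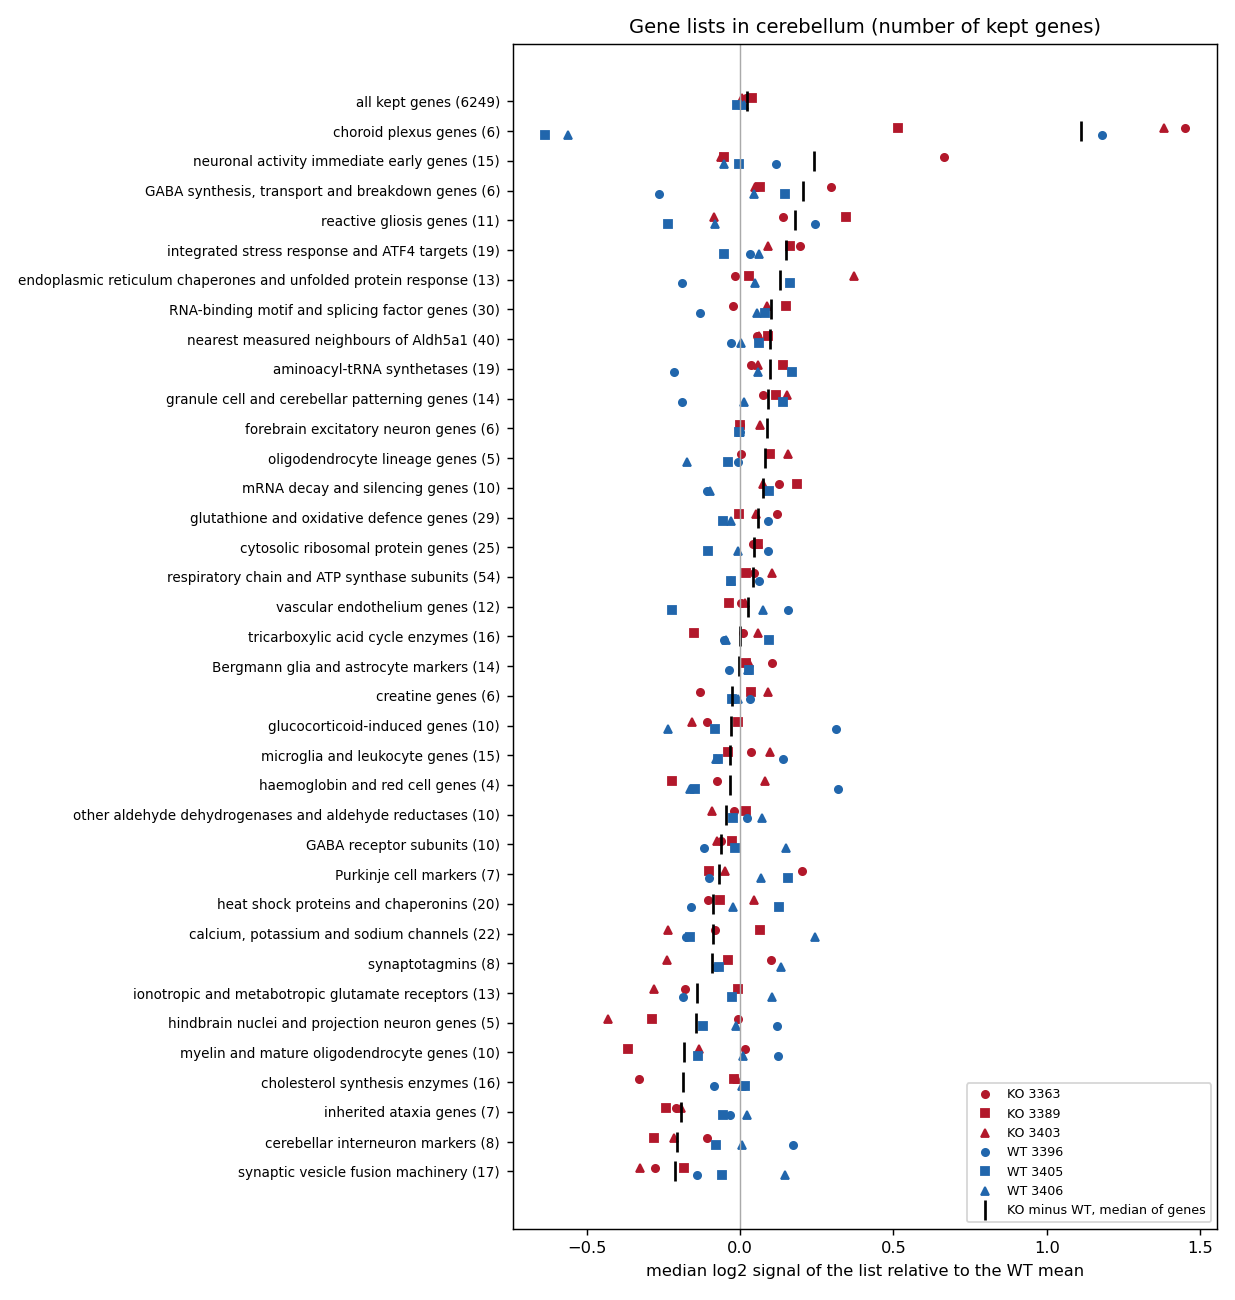
For each gene list (number of kept genes in parentheses), the median log2 signal of its genes relative to the WT mean in each KO animal (red) and each WT animal (blue), with the median of KO minus WT as a black bar. The choroid plexus list stands far to the right in KO and in WT 3396, the vesicle fusion list lies at -0.21, and in most lists the animals of both groups are mixed.

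GABA itself was represented by few kept genes. Of 13 genes of GABA synthesis, transport and breakdown, 6 were kept, 4 above 0 and 2 below, with a median of 0.20. Gad1, which makes GABA, had 2064, 1771 and 1771 in KO and 1498, 1836 and 1662 in WT (difference 0.17 ± 0.10), and Glud1, the glutamate dehydrogenase upstream of it, had 531, 505 and 522 in KO and 308, 505 and 395 in WT (difference 0.40 ± 0.19, adjusted p 0.427). For Glud1 the KO animals were alike and WT 3405 matched KO 3389 to within 1 unit. Among GABA receptor subunits 10 of 19 were kept, 5 above 0 and 5 below, with a median of -0.06. Gabra6 had 2316, 2377 and 2618 in KO and 2749, 2692 and 2881 in WT without overlap (difference -0.19 ± 0.16, adjusted p 0.688), and Gabrd, its extrasynaptic partner, had 302, 305 and 358 in KO and 313, 419.5 and 582 in WT (difference -0.40 ± 0.24). Glutamate receptors had 8 of 13 kept genes below 0 and a median of -0.14. Grik5, a kainate receptor subunit, had 139, 155 and 153 in KO and 245, 192 and 287 in WT (difference -0.68 ± 0.20, adjusted p 0.172), and Grin2c, the NMDA receptor subunit of mature granule cells, gave -0.41 ± 0.13.

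Marker lists for cell types of the cerebellar cortex had medians between -0.21 and 0.09. Purkinje cell markers had 7 of 15 kept, 3 above 0 and 4 below, with a median of -0.07. Homer3, a synaptic scaffold of Purkinje cells, had the lowest p, with 478, 402 and 429 in KO and 476, 518 and 533 in WT, which overlapped (difference -0.22 ± 0.18, adjusted p 0.652). Pcp2 had 1564, 1503 and 1436 in KO and 1364, 1289.5 and 1197 in WT (difference 0.23 ± 0.39), and Calb1, calbindin, had 1915, 1724 and 1715 in KO and 1374, 1839 and 1706 in WT (difference 0.13 ± 0.11). Granule cell and patterning genes had 9 of 14 kept genes above 0 and a median of 0.09. In 4 (28.6%) the groups did not overlap with KO higher and in 2 (14.3%) with KO lower. The shares of all kept genes were 7.19% and 8.21%. Among them the transcription factor Zic2 had 212, 197 and 255 in KO and 99.4, 189.6 and 92.4 in WT (difference 0.87 ± 0.36, adjusted p 0.331), and Cbln1, the synapse organiser secreted by granule cells, had 2105, 2357 and 2364 in KO and 2586, 2572 and 3043 in WT (difference -0.26 ± 0.13). Interneuron markers had 6 of 8 kept genes below 0 and a median of -0.21, led by Sst, somatostatin, with 30.0, 32.1 and 59.5 in KO and 110.5, 59.9 and 52.9 in WT (difference -0.87 ± 0.24, adjusted p 0.156). KO animal 3403 lay within the WT range of Sst. Bergmann glia and astrocyte markers were split 7 to 7 with a median of 0.00. Genes of inherited ataxia had 5 of 7 kept genes below 0 with a median of -0.19, and for Atxn10 the groups did not overlap, with 1114, 1013 and 1087 in KO and 1291, 1214 and 1282 in WT (difference -0.24 ± 0.08).

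Myelin genes had 8 of 10 kept genes below 0 and a median of -0.18. Ugt8a, which makes the myelin lipid galactocerebroside, had 183, 358 and 292 in KO and 462, 397 and 557 in WT (difference -0.81 ± 0.28, adjusted p 0.249). KO animal 3389, the highest of its group, approached WT 3405. Gsn, gelsolin, had 554, 518 and 657 in KO and 845, 781 and 965 in WT (difference -0.58 ± 0.25, adjusted p 0.344), without overlap. Mbp, the main basic protein of myelin, had 2579, 2691 and 2769 in KO and 3346, 2811 and 2995 in WT, also without overlap, with a difference of -0.18 ± 0.15 (adjusted p 0.672). These 3 of the 10 kept genes (30%) did not overlap with KO lower, beside 8.21% of all kept genes. Mog and Mal gave 0.00 ± 0.24 and -0.02 ± 0.29. Cholesterol synthesis enzymes had 12 of 16 kept genes below 0 with a median of -0.18, which came to 0.02 without KO animal 3363, and Dhcr7, which makes cholesterol from its last precursor, gave -0.57 ± 0.24.

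Stress response genes came next. Targets of the integrated stress response had 14 of 19 kept genes above 0 with a median of 0.15. In 3 genes (15.8%) the groups did not overlap with KO higher, beside 7.19% of all kept genes. Atf5, a transcription factor induced by this response, had 137, 67.3 and 99.1 in KO and 40.9, 47.5 and 61.5 in WT (difference 0.98 ± 0.29, adjusted p 0.174), and Mthfd2, a mitochondrial folate enzyme, had 238, 326 and 227 in KO and 161, 176 and 159 in WT (difference 0.66 ± 0.19, adjusted p 0.174). The other gene of these 3 was Slc7a3, which was dim and gave 0.53 ± 0.24 (adjusted p 0.393). Eif4ebp1 had the largest difference of the list, 1.09 ± 0.40 (adjusted p 0.270), with overlap and with WT 3405 and 3406 under the floor. Among the 5 kept genes below 0, Asns gave -0.13, Psat1 -0.22 and Ddit4 -0.03, and these overlapped between groups. Immediate early genes had 11 of 15 kept genes above 0 and a median of 0.24, which was -0.06 without KO animal 3363. Jun had 98.8, 121 and 114 in KO and 150.1, 176 and 185 in WT (difference -0.62 ± 0.15, adjusted p 0.141), opposite to Junb at 0.59 ± 0.21. Heat shock proteins and chaperonins had 13 of 20 kept genes below 0 with a median of -0.09, which was 0.02 without WT 3405. In 3 of the 20 (15%) the groups did not overlap with KO higher and in 4 (20%) with KO lower. The shares of all kept genes were 7.19% and 8.21%. Chaperones of the endoplasmic reticulum had 10 of 13 above 0 with a median of 0.13, which was -0.04 without WT 3396.

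Subunits of the respiratory chain and ATP synthase had 36 of 54 kept genes above 0 with a median of 0.04, which became -0.03 when arrays were scaled to the same median. Ndufb3, a subunit of complex I, had 1288, 1104 and 1375 in KO and 570.1, 810.5 and 804 in WT (difference 0.80 ± 0.24, adjusted p 0.174), and Uqcrb and Cox7b, of complexes III and IV, gave 0.28 ± 0.10 and 0.32 ± 0.12. All 3 were free of overlap. Atp5d, of ATP synthase, went the other way at -0.79 ± 0.30, with overlap. Of the 54, 8 (14.8%) did not overlap with KO higher and 2 (3.7%) with KO lower, beside 7.19% and 8.21% of all kept genes. Tricarboxylic acid cycle enzymes, which receive the carbon that Aldh5a1 would deliver, were split 8 to 8 with a median of 0.00: Pdhb gave 0.44 ± 0.18 and Ogdh, Cs and Suclg1 gave -0.28 ± 0.10, -0.24 ± 0.10 and -0.24 ± 0.10. Other aldehyde dehydrogenases and reductases, which handle related substrates, were split 5 to 5 with a median of -0.05 and differences between -0.26 and 0.32. Cytosolic ribosomal protein genes had 17 of 25 above 0 with a median of 0.04, which became -0.03 under median scaling, and Rps19, at 0.88, was the member with the largest difference.

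Of the remaining lists, reactive gliosis genes had 8 of 11 kept genes above 0 with a median of 0.18, which was -0.02 without WT 3405. Aminoacyl-tRNA synthetases had 12 of 19 above 0 with a median of 0.10, which was -0.08 without WT 3396. Genes of glutathione and oxidative defence had 19 of 29 above 0 with a median of 0.06, which became -0.02 under median scaling. Calcium, potassium and sodium channels had 10 of 22 above 0 (median -0.09, but 0.15 without WT 3406), and glucocorticoid-induced genes 4 of 10 (median -0.03). Vascular endothelium genes were split 6 to 6 (median 0.02) and creatine genes 3 to 3 (median -0.03). Of the 6 kept creatine genes, 1 (16.7%) was free of overlap with KO higher and 2 (33.3%) with KO lower. The shares of all kept genes were 7.19% and 8.21%. Of the oligodendrocyte lineage 3 of 5 were above 0 (median 0.08), of haemoglobin and red cell genes 1 of 4 (median -0.03), and of hindbrain projection neuron genes 1 of 5 (median -0.14). Forebrain excitatory neuron genes had 6 of 11 kept, 4 above 0 and 1 below (median 0.09), and Cck, with the lowest p, gave 0.19 ± 0.10.

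The same animals were measured in other regions. In hippocampus 10 probe sets (0.119%) and in cortex 24 (0.286%) passed between KO and WT (8.41% and 10.2% at an unadjusted p under 0.05), beside 3 (0.0358%) in cerebellum, and a difference between these counts was not tested. Genes that earlier results of these data name in the other regions were set beside cerebellum. Atf5 differed by 0.98 ± 0.29 in cerebellum, 2.41 ± 0.29 in hippocampus and 2.01 ± 0.29 in cortex, and Nupr1, a stress-induced chromatin protein, by 0.35 ± 0.44, 3.23 ± 0.44 and 1.47 ± 0.44. The difference between cerebellum and the mean of the other regions was -1.23 ± 0.35 for Atf5 (adjusted p 0.274), and for Nupr1 the adjusted p was 0.217, so neither passed. Gsn, Mog and Mal differed by -0.58 ± 0.25, 0.00 ± 0.24 and -0.02 ± 0.29 in cerebellum, against -1.89 ± 0.25, -1.47 ± 0.24 and -1.73 ± 0.29 in cortex, and their tests of the difference between regions gave an adjusted p of 0.186 each.

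**Figure D5:**
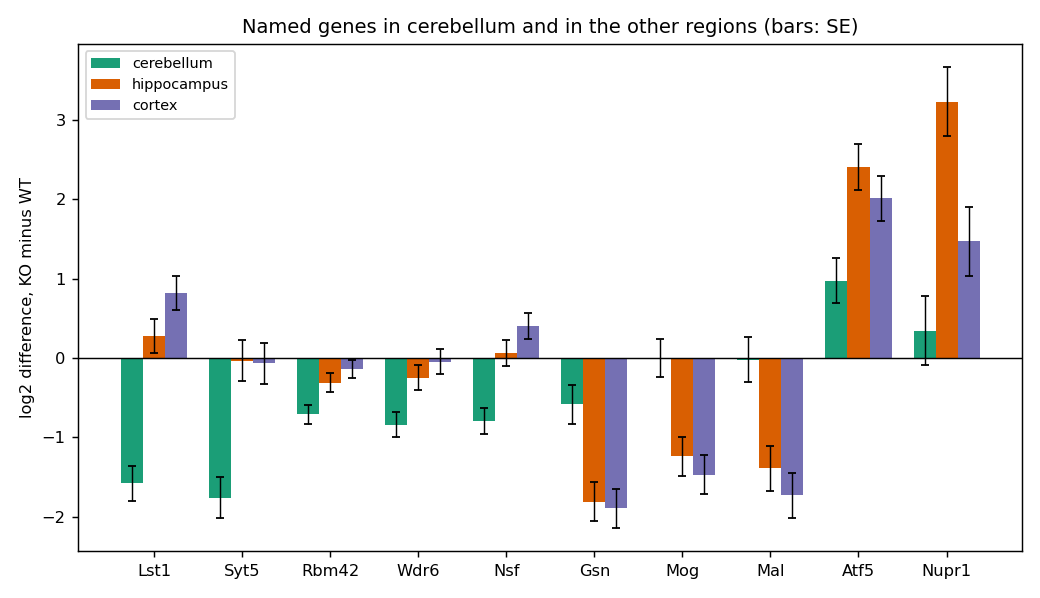
Bars show the log2 difference between KO and WT, KO minus WT, in cerebellum (green), hippocampus (orange) and cortex (purple) for 10 named genes, and the error bars are limma's standard errors. Lst1 lies below 0 in cerebellum (-1.58) and above it in hippocampus (0.28) and cortex (0.82), while Gsn, Mog and Mal lie lower in the other regions than in cerebellum.

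A test of whether the KO difference in cerebellum departs from its mean in hippocampus and cortex passed for 2 probe sets higher (0.0239%) and 1 lower (0.0119%) of 8382, with 749 at an unadjusted p under 0.05 (8.94%). The lower one was Lst1, with -1.58 ± 0.22 in cerebellum, 0.28 ± 0.22 in hippocampus and 0.82 ± 0.22 in cortex (difference between regions -2.13 ± 0.26, limma adjusted p 0.00176). Its differences in hippocampus and cortex did not pass by themselves (limma adjusted p 0.753 and 0.156). The higher ones were a dimmer and a brighter probe set of Mobp, which encodes a basic protein of oligodendrocyte myelin. On the dimmer one cerebellum had 937, 910.0 and 818 in KO and 774, 745 and 721 in WT, and the KO difference was 0.25 ± 0.18 in cerebellum, -1.07 ± 0.18 in hippocampus and -1.30 ± 0.18 in cortex (difference between regions 1.43 ± 0.22, adjusted p 0.00844). On the brighter one cerebellum had 1842, 1709.9 and 1968 in KO and 1766, 1767 and 1591 in WT (difference between regions 1.33 ± 0.20, adjusted p 0.00844). The remaining Mobp probe sets gave 1.15 ± 0.37 and 0.83 ± 0.25 for the difference between regions and did not pass (adjusted p 0.339 and 0.298). In cerebellum they gave -0.41 ± 0.30 and -0.18 ± 0.20, with overlap, so the sign there differed between Mobp probe sets. The call for Lst1 was lost without KO 3389, and those for Mobp without KO 3389, KO 3403 or WT 3406, without the filter on dim probe sets, or without the intensity trend. The dimmer Mobp probe set also lost its call without KO 3363 (adjusted p 0.0716).

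Syt5 and Nsf came next in this test. Syt5 differed by -1.76 ± 0.26 in cerebellum, -0.03 ± 0.26 in hippocampus and -0.06 ± 0.26 in cortex (difference between regions -1.71 ± 0.32, adjusted p 0.0772), and Nsf by -0.79 ± 0.16, 0.06 ± 0.16 and 0.40 ± 0.16 (adjusted p 0.101). Septin4, a septin abundant in glia, and Fxyd7, a regulator of the sodium pump, followed at an adjusted p of 0.159 each. Rbm42, with -0.31 ± 0.12 in hippocampus and -0.14 ± 0.12 in cortex, gave a difference between regions of -0.48 ± 0.14, which did not pass (adjusted p 0.278).

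The chromosomal neighbours of Aldh5a1 and of the genes that passed were measured too. Of the 40 measured genes nearest to Aldh5a1, 20 on each side, 23 were above 0 and 17 below, with a median of 0.10, and 0 passed. In 5 (12.5%) the groups did not overlap with KO higher and in 1 (2.5%) with KO lower. Of all kept genes, 7.19% did not overlap with KO higher and 8.21% with KO lower. The share in either direction was 15%, beside 15.4% of all kept genes. Acot13 had the lowest p of the 40, and Tdp2, a DNA repair phosphodiesterase, Bphl, Zkscan3 and Zscan26 were the others free of overlap with KO higher, at 0.33, 0.23, 0.27 and 0.38. Next to Lst1, Bag6, a chaperone of newly made membrane proteins, gave -0.69 ± 0.15 (adjusted p 0.0720) on the probe set of lowest p, while its other probe sets gave 0.61, -0.18 and -0.16. Abhd16a and Ddx39b gave -0.27 and -0.34, both without overlap. The 5 measured genes on each side of Syt5 and of Rbm42 gave -0.31 to 0.66 and -0.37 to 0.50, and none passed.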

How the data were processed

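Each sample was 1 array hybridised with RNA of 1 brain region. The deposited values were linear probe set intensities of an Affymetrix mouse array, and as deposited every one of the 18 arrays had nearly the same trimmed mean. The scanner software and summary method are not given in the sources used here. The table held 12488 probe sets, of which 66 controls were left out, and it had 0 further per-sample columns. Genes were named from the platform annotation: 10855 probe sets had 1 symbol, 396 several and 1237 none, and the RefSeq gene table of GRCm38 held 10843 of those with 1 symbol. The source field names hippocampus for all samples, so the region was taken from titles and checked against markers.

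Signals were raised to a floor at the 20th percentile and log2-transformed. Probe sets above an array's 40th percentile on at least 3 arrays were kept, 8382 in all. Group means for the 3 regions and both genotypes were fitted to all 18 arrays with limma 3.58.1 in R 4.3.3 (12 residual degrees of freedom, intensity trend), with Benjamini-Hochberg adjustment over all kept probe sets. The fit was also run on simulated data with independent errors and planted differences. That run checks the code and cannot show how reliable the calls are with 3 animals per group. The number of arrays limits the precision, and nothing in the labels says whether the animals were littermates.

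Named genes were the 12 of lowest p in each direction and the 8 largest differences without overlap. The 8 widest and the 8 narrowest WT SDs were taken among probe sets above the median WT signal. Added to these were the lowest p of the difference between regions, genes of the other regions, synaptotagmins, and other probe sets of these. The member of lowest p was named for some lists and not for others. Further list members and chromosomal neighbours were named after their values were seen. For a list, a gene was represented by its brightest kept probe set. Comparison, genes and lists were chosen with earlier results of these data known. The labels give the same animal numbers in each region. Deviations from the group means correlated across regions with a median r of 0.14 within animals (n = 12 pairs) and -0.03 between animals (n = 60 pairs), so animal was fitted as a block as an alternative. Others were quantile and median scaling, other floors and filters, no or a robust trend, the cerebellum arrays alone, and each animal left out.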

Additional observations from a re-analysis of the deposited data

Results flagged for a closer look

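In 3 probe sets the genotype difference in cerebellum departed from its mean in hippocampus and cortex by limma's test of that difference. For Lst1 the departure was -2.13 ± 0.26 on the log2 scale (adjusted p 0.00176), with KO lower in cerebellum (3 of 3 KO animals below all WT animals). In hippocampus and cortex Lst1 was higher in KO on average, but neither difference passed (limma adjusted p 0.753 and 0.156). For Mobp the departure was 1.33 ± 0.20 on the brighter probe set and 1.43 ± 0.22 on the dimmer one (adjusted p 0.00844 each), with lower signal in KO in hippocampus and cortex. In cerebellum these probe sets gave 0.11 ± 0.16 and 0.25 ± 0.18, and on the dimmer one all KO animals lay above all WT animals. The other Mobp probe sets gave departures of 1.15 ± 0.37 and 0.83 ± 0.25, and these did not pass. Their differences in cerebellum were -0.41 ± 0.30 and -0.18 ± 0.20, with overlap, so the sign there differed between Mobp probe sets.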

How the results depend on the processing

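The counts of 0 higher and 3 lower probe sets became 1 and 15 under median scaling, which moved the median of all probe sets from 0.03 to -0.04, 2 and 3 without the filter on dim probe sets, 2 and 7 with a filter at the 60th percentile, 0 and 1 without the intensity trend, and 0 and 0 for the cerebellum arrays alone. With the animal as a replicate block (correlation 0.0786) the counts were again 0 and 3, and the block changed no call of the named genes between genotypes. Quantile normalization, a floor of 1, 16 added in place of the floor, a filter on the cerebellum arrays and a robust trend also gave 0 and 3. Leaving out each animal in turn gave 0 to 57 higher and 0 to 75 lower, and the cause was not tested. The counts at an unadjusted p under 0.05 were 774 without KO 3389 and 571 without WT 3406, where 0 passed. Lst1 passed in 14 of 17 alternatives (adjusted p 0.00295 to 0.259), Syt5 in 12 (0.000275 to 0.477) and Rbm42 in 11 (0.0118 to 0.420), and all 3 were lower in KO in each. For the difference between regions, 0 probe sets were higher without the filter and 0 without the trend, and leaving out each animal gave 0 to 17 higher and 0 to 17 lower. The median WT SD of 0.216 was 0.186 with 16 added, 0.187 without the filter, 0.190 with the 60th percentile filter and 0.158 to 0.215 with each animal left out. Of 706 values for 42 named probe sets, 14 lost and 39 gained a call. The sign changed in 10 values, all of probe sets that had not passed, and in 0 values of the 3 that had.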
